A study of Homo sapiens with 4 samples.

Results

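The genes described here encode proteins of cell-cell junctions: claudins, cadherins, connexins, the desmosomal desmocollins, desmogleins and plakophilins, the scaffolds TJP1 and TJP3, and occludin, desmoplakin and plakoglobin. The families were picked with earlier results of these data known, and every gene whose symbol matched a family's pattern was taken, 76 of the 17687 genes named on the arrays: 24 claudins, 21 cadherins, 15 connexins, 13 desmosome proteins, and OCLN with 2 TJP scaffolds. RNA came from KGN cells, a human granulosa cell line established from a granulosa cell tumour, and was measured on Clariom S Human arrays. The groups were siYT+8Br-cAMP, siYT, siNC+8Br-cAMP and siNC, with 1 array each. In both siYT groups the cells received siRNAs against YAP and TAZ at 5 nM each, and in both siNC groups a control siRNA at 10 nM. The medium was changed 48 h later to one with 0.5 mM 8Br-cAMP, a cell-permeable cyclic AMP analogue, or without it, and RNA was taken after 24 h more. All groups thus share transfection and the cell line. The values are deposited log2 signals, and differences are given on that scale. Because the highest deposited value, 19.36, exceeds the log2 limit of a 16-bit scanner, 16, a rescaling is possible, and a difference of 1 is a 2-fold change only if there was none.

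Junctions hold neighbouring cells together and join them into a tissue. Claudins and occludin form tight junctions, which seal the space between cells and are tied to actin by TJP scaffolds. Classical cadherins form adherens junctions and bind catenins inside the cell, while desmosomal cadherins bind plakoglobin, plakophilins and desmoplakin, which anchor intermediate filaments. Connexins form gap junction channels. Granulosa cells are coupled to each other by gap junctions that contain connexin 43, and cyclic AMP carries the gonadotropin signal in these cells. YAP and TAZ are transcriptional coactivators that act mainly through TEAD factors, and cell contacts feed into the Hippo kinases that restrain them.

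With a single array a group, the spread between cultures is unknown and no p-value was computed. A gene is named as called from size and background alone. A gene counted as above background on an array when it exceeded the level under which 95% of the 612 negative control probe sets of that array lay. This level was 6.98 in siYT+8Br-cAMP against 6.53 in siNC+8Br-cAMP, and 7.29 in siYT against 6.94 in siNC. YAP1 was at 6.29 in siYT+8Br-cAMP against 9.46 in siNC+8Br-cAMP and at 6.80 in siYT against 9.48 in siNC. WWTR1, which encodes TAZ, was at 5.35 in siYT+8Br-cAMP against 9.13 in siNC+8Br-cAMP, and at 5.45 in siYT against 7.58 in siNC. Both genes were under background in both siYT groups and above it in both siNC groups. The 2197 positive control probe sets had a median difference of -0.35 between siYT+8Br-cAMP and siNC+8Br-cAMP and of -0.36 between siYT and siNC. Of 11 measured granulosa markers, INHBA, GATA4 and STAR were above background on all 4 arrays and 6, among them FOXL2, FSHR and NR5A1, on none. CYP19A1 was above it on 3 arrays, at 17.56 in siYT+8Br-cAMP, 14.26 in siYT and 14.26 in siNC+8Br-cAMP. In siNC it was under background, at 5.04. WT1 was above background on 1 array.

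Most junction genes were not detected. Of the 76 genes, 15 were above background on all 4 arrays, 5 on some and 56 on none, so that 26.3% were above it somewhere, against 49.6% of all genes. The 56 undetected genes lay between 2.26 and 6.87, with a median of 3.78. Among the claudins 5 of 24 were above background on at least 1 array, among the cadherins 5 of 21, among the desmosome proteins 6 of 13, and among the connexins 2 of 15. OCLN and TJP1 were detected on all arrays.

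Several junction genes with well-known roles elsewhere stayed at background. CDH1, which encodes E-cadherin of epithelia, was at 2.67 in siYT+8Br-cAMP, against 4.08 in siNC+8Br-cAMP, and at 3.36 in siYT, against 2.76 in siNC. At such levels 20.3% to 65.9% of the negative controls lay below it. CDH5, the cadherin of endothelium, lay between 3.37 and 3.83, and TJP3, a TJP scaffold, between 2.54 and 3.10. GJA4, which encodes connexin 37, the connexin of the mouse oocyte, lay between 4.35 and 5.38. All 8 endothelial markers were under background on all arrays, and of 8 epithelial markers only KRT7 and CLDN7 were above it. Of 4 measured leukocyte markers, 3 were under background on all arrays. The other, CD68, was above it on all 4, with siRNA differences of 2.82 with and 1.92 without 8Br-cAMP.

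**Figure D1:**
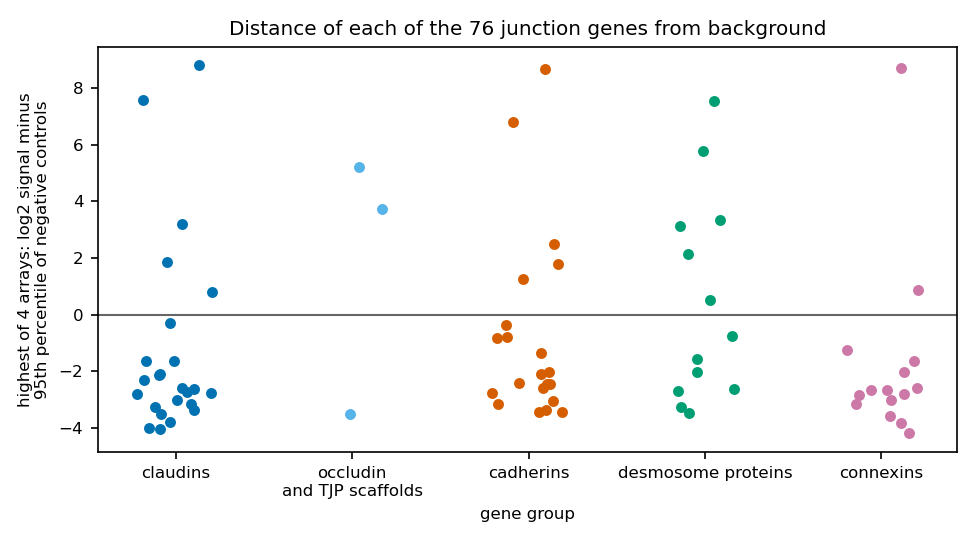
Each point is 1 of the 76 junction genes, placed by gene group on the horizontal axis. The vertical axis is the highest of its 4 values of log2 signal minus the 95th percentile of that array's negative controls, so that the 20 genes over the line at 0 are above background somewhere and the 56 under it are not.

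**Figure D2:**
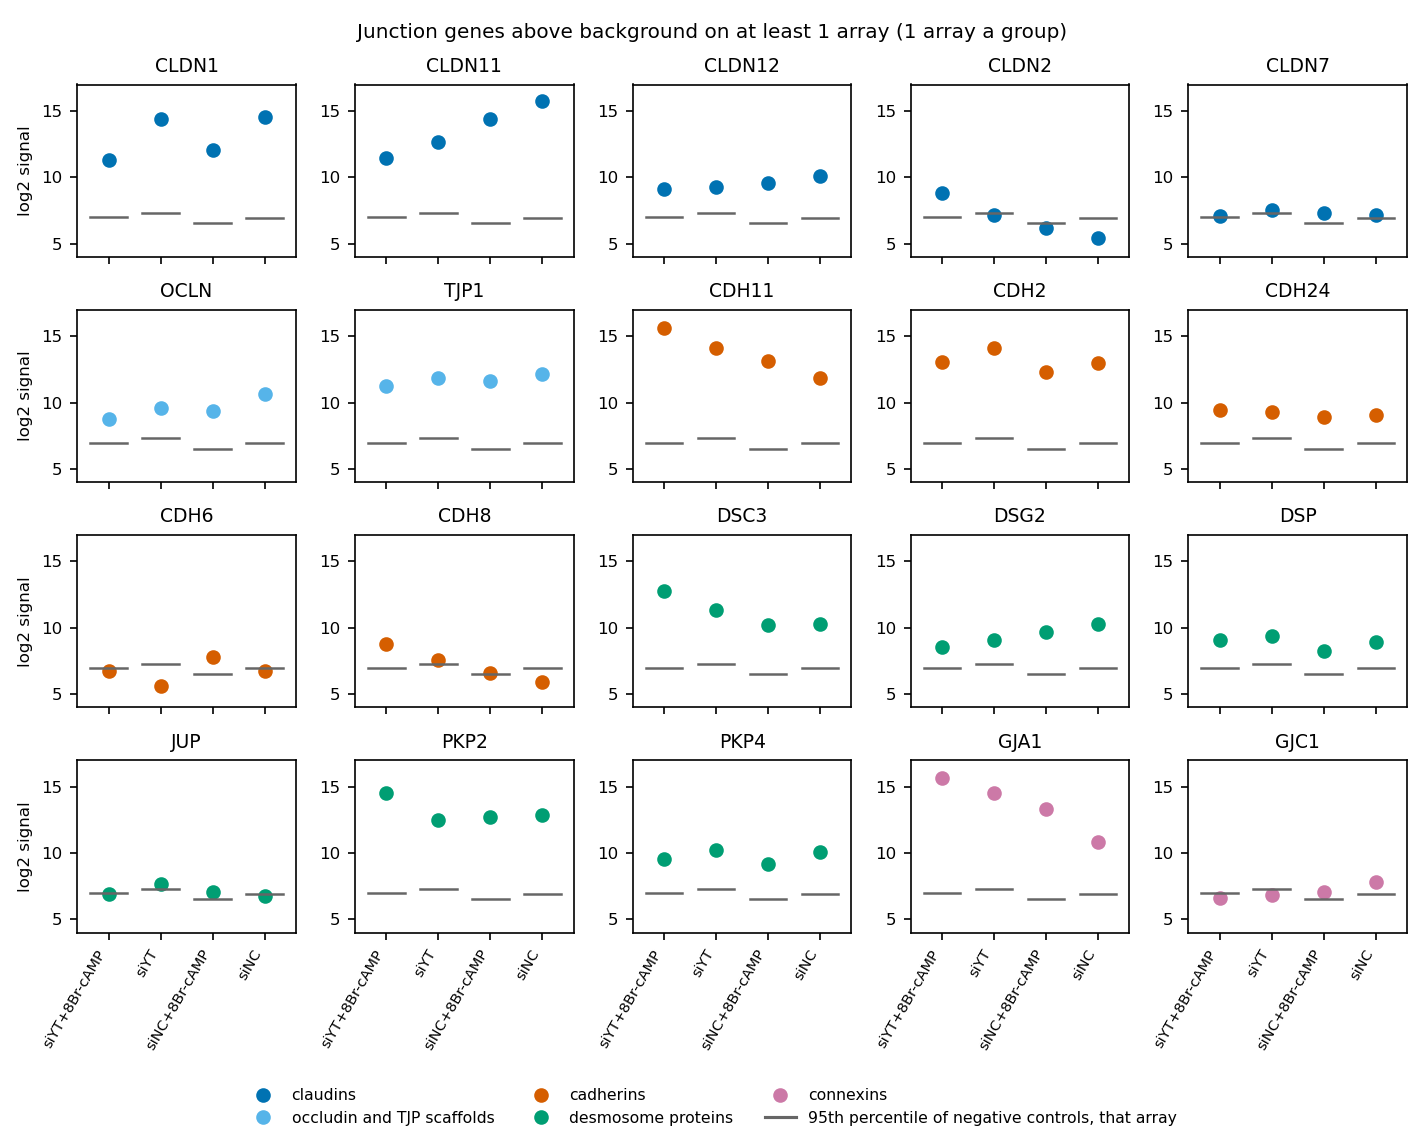
Log2 signal of the 20 junction genes above background on at least 1 array, with 1 panel a gene, 1 point an array and colours for gene groups. The grey bars mark the 95th percentile of each array's negative controls. GJA1 and CDH11 are highest in siYT+8Br-cAMP and lowest in siNC, and CLDN11 runs the opposite way.

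The promoters of 4 genes called in the comparisons below, GJA1, CDH8, CLDN11 and CLDN1, are printed. CDH11 and PKP2, which also had large differences, had no matched window. The 4 printed windows were picked after the values of the genes were seen. Each is the 250 bases before the most upstream RefSeq transcription start, 5′ to 3′ in the direction of the gene, in build GRCh38.p14. Capitals mark the TEAD core GGAATG or CATTCC, the cyclic AMP response element core TGACG or CGTCA, and the AP-1 motif TGANTCA, searched on both strands. The GJA1 window lies at chr6:121435396-121435645 on the plus strand, the CDH8 window at chr16:62036439-62036688 on the minus strand, the CLDN11 window at chr3:170418618-170418867 on the plus strand and the CLDN1 window at chr3:190322447-190322696 on the minus strand.
GJA1: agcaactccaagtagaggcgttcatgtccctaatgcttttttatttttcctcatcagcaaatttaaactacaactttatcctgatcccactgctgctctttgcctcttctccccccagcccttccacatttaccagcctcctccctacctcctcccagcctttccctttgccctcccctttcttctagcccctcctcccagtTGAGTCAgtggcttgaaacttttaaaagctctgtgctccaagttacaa
CDH8: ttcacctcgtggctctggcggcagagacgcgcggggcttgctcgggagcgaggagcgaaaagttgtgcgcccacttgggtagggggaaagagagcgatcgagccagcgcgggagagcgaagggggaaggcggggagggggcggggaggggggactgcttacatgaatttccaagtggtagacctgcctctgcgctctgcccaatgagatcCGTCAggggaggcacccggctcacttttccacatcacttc
CLDN11: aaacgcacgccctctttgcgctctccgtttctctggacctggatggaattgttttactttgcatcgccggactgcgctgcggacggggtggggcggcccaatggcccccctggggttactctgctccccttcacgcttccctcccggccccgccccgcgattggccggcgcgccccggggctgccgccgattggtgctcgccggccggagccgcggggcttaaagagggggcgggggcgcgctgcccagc
CLDN1: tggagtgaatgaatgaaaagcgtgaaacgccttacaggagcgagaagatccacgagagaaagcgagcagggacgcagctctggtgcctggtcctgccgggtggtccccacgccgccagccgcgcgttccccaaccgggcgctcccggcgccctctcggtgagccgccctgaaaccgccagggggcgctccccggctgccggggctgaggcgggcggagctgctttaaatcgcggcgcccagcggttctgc
GJA1 holds an AP-1 motif, TGAGTCA, whose first base is at position -48 from the start, and CDH8 holds the core CGTCA at -40. The windows of CLDN11 and CLDN1 hold none of these motifs. RefSeq windows of 300 bases, with 50 bases after the start, were matched for 15 of the 20 detected genes, 26 windows in all. The TEAD core was in 0 of these 26 windows and in 14.0% of all 35116 windows. The cyclic AMP core was in 7 of them, against 24.6% of all windows, and the AP-1 motif in 3, against 7.71%. The full element TGACGTCA, which contains the core on both strands, was in 1 of the 26, that of CLDN7 at -116, and in 1.85% of all windows. A match describes letters only, and the absence of a match in so short a window says nothing of a factor.

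The first comparison asked what the YAP/TAZ siRNAs changed in each medium. Genes were called when they differed by at least 1 on the log2 scale and the higher value was above background. With 8Br-cAMP, 6 junction genes were called higher in siYT+8Br-cAMP and 3 lower, when 5% of all genes were called higher and 5.6% lower. Without it, 5 were called higher in siYT and 4 lower, beside 6.61% and 6.69% of all genes. In these bulk samples, fewer cells of a type and less RNA per cell cannot be told apart. In both media, GJA1, CDH11, CDH8 and DSC3 were called higher and CLDN11 and DSG2 lower, which is 4 and 2 of 76, beside 2.91% and 3.38% of all genes. These counts are small, and the shares without 8Br-cAMP are near those over all genes. A call needs a value above background, and 26.3% of the 76 genes had one on any array, against 49.6% of all genes. The median difference over the 76 genes was 0.13 with and 0.03 without 8Br-cAMP, against 0.06 and 0.02 over all genes. After quantile normalization the median with 8Br-cAMP was -0.0001, against 0.02 over all genes. Most of the 76 genes were under background on all arrays, so these medians mostly describe values at background. The balance over all genes rests on the scaling: 884 were called higher and 990 lower with 8Br-cAMP as deposited, but 1696 and 557 after each array was centred on its positive controls. Without 8Br-cAMP these counts were 1169 and 1184 as deposited, and 2025 and 683 after that centring. The calls of DSG2 in both media, of OCLN and GJC1 without 8Br-cAMP and of CDH6 with it do not hold under that centring.

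CLDN11, the claudin of myelin and of the Sertoli cell barrier, was the tight junction gene with the largest siRNA differences. It was at 11.49 in siYT+8Br-cAMP against 14.42 in siNC+8Br-cAMP, a difference of -2.92, and at 12.65 in siYT against 15.74 in siNC, a difference of -3.10. Both siYT values lay under both siNC values, and all 4 were above background. CLDN2, which forms cation pores, went the opposite way, with 8.83 in siYT+8Br-cAMP against 6.17 in siNC+8Br-cAMP, a difference of 2.66. Without 8Br-cAMP it was at 7.18 in siYT against 5.42 in siNC; this difference of 1.76 was not called, because 7.18 lies just under the background of 7.29 of that array. CLDN2 was thus above background on the siYT+8Br-cAMP array alone, and its size rests on values at background. CLDN1, a claudin of the epidermal barrier, differed by -0.70 with 8Br-cAMP, at 11.33 in siYT+8Br-cAMP and 12.03 in siNC+8Br-cAMP, and by -0.11 without it, at 14.41 in siYT and 14.52 in siNC.

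The other tight junction genes differed less. OCLN, the tetraspan protein occludin, was at 9.58 in siYT against 10.68 in siNC, a called difference of -1.11, and at 8.77 in siYT+8Br-cAMP against 9.33 in siNC+8Br-cAMP, a difference of -0.56. TJP1, the scaffold ZO-1, was at 11.28 in siYT+8Br-cAMP against 11.59 in siNC+8Br-cAMP and at 11.89 in siYT against 12.14 in siNC, with siRNA differences of -0.31 with and -0.25 without 8Br-cAMP. CLDN12 lay between 9.09 and 10.13 and CLDN7 between 7.06 and 7.55, the second of these just above background on every array. Neither was called in any comparison.

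Cadherins that were called were mostly higher after YAP/TAZ siRNA. CDH11, a type II cadherin of mesenchymal cells, was at 15.64 in siYT+8Br-cAMP against 13.16 in siNC+8Br-cAMP, a difference of 2.47, and at 14.12 in siYT against 11.88 in siNC, a difference of 2.24. Both siYT values lay above both siNC values. CDH8, a type II cadherin of the nervous system, was at 8.78 in siYT+8Br-cAMP against 6.58 in siNC+8Br-cAMP and at 7.54 in siYT against 5.93 in siNC, with differences of 2.20 and 1.61. Its siNC value was under background and its siNC+8Br-cAMP value just above it, so these sizes depend on the background.

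CDH2, which encodes N-cadherin, the classical cadherin of granulosa cells, was at 14.11 in siYT against 13.00 in siNC, a called difference of 1.11. With 8Br-cAMP it was at 13.04 in siYT+8Br-cAMP against 12.31 in siNC+8Br-cAMP, a difference of 0.73. CDH6, a type II cadherin of the kidney, was at 6.73 in siYT+8Br-cAMP against 7.77 in siNC+8Br-cAMP, a called difference of -1.04. Without 8Br-cAMP it was at 5.58 in siYT against 6.77 in siNC, a difference of -1.19 between values under background. CDH24, a type II cadherin, lay between 8.88 and 9.46 and was called in no comparison. Over the 21 cadherins, 2 were called higher and 0 lower in both media, beside 2.91% and 3.38% of all genes, and 19 were not called in both.

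CDH8 and CDH11 are neighbours on chromosome 16 in RefSeq, with no protein-coding gene of the table between them. CDH5, the next gene after CDH11, was under background on all arrays. Of 7 markers of theca and stromal fibroblasts, 3 were above background on all arrays, 2 on some and 2 on none, and their log2 levels summed to 60.2 in siYT+8Br-cAMP against 51.6 in siNC+8Br-cAMP and to 66.3 in siYT against 53.3 in siNC. Of the 7, DCN and LUM were called higher in both media and 0 lower, beside 2.91% and 3.38% of all genes. DCN differed by 3.86 with and 3.38 without 8Br-cAMP and LUM by 4.45 and 5.34, and both were above background in both siYT groups and under it in both siNC groups. Without 8Br-cAMP, PDGFRA (2.53) and COL1A2 (1.34) were also called higher, in a comparison where 6.61% of all genes were. With 8Br-cAMP they gave 0.06 and 0.80 and were not called. COL1A1 gave -0.99 with and 0.11 without 8Br-cAMP and was called in neither. CYP17A1 and INSL3, the theca-specific markers, were under background throughout. The part of these markers in the cadherin differences was not tested.

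Desmosome genes were called in both directions. DSC3, the desmosomal cadherin desmocollin 3, was at 12.75 in siYT+8Br-cAMP against 10.24 in siNC+8Br-cAMP, a difference of 2.51, and at 11.35 in siYT against 10.26 in siNC, a difference of 1.09. DSG2, desmoglein 2, was at 8.59 in siYT+8Br-cAMP against 9.67 in siNC+8Br-cAMP and at 9.06 in siYT against 10.29 in siNC, with called differences of -1.08 and -1.23. The 2 siYT values of DSC3 lay above both of its siNC values, and those of DSG2 below. PKP2, plakophilin 2, which links desmosomal cadherins to desmoplakin, was at 14.52 in siYT+8Br-cAMP against 12.71 in siNC+8Br-cAMP, a called difference of 1.81. Without 8Br-cAMP it was at 12.49 in siYT against 12.86 in siNC, a difference of -0.37.

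The cytoplasmic desmosome proteins were otherwise not called for the siRNA. DSP, desmoplakin, was at 9.11 in siYT+8Br-cAMP against 8.23 in siNC+8Br-cAMP and at 9.35 in siYT against 8.94 in siNC. JUP, plakoglobin, stayed near background, at 6.93 in siYT+8Br-cAMP against 7.05 in siNC+8Br-cAMP, and at 7.70 in siYT against 6.78 in siNC. PKP4, a plakophilin relative, lay between 9.15 and 10.22, with siRNA differences of 0.36 and 0.15. In RefSeq CDH2, DSC3, DSC2, DSC1, DSG1, DSG4, DSG3 and DSG2 follow each other on chromosome 18 with no other protein-coding gene of the table between them. Of these 8 neighbours, CDH2, DSC3 and DSG2 were above background on all arrays and the other 5 on none.

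Of the connexins, GJA1 and GJC1 were detected. GJA1, which encodes connexin 43, was at 15.67 in siYT+8Br-cAMP against 13.36 in siNC+8Br-cAMP and at 14.50 in siYT against 10.86 in siNC. The differences were 2.31 and 3.64, all values were far above background, and both siYT values lay above both siNC values. GJC1, which encodes connexin 45, was at 6.81 in siYT against 7.81 in siNC, a difference of -1.004 that only just reached the threshold. With 8Br-cAMP it was at 6.59 in siYT+8Br-cAMP against 7.04 in siNC+8Br-cAMP, and both siYT values were under background.

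**Figure D3:**
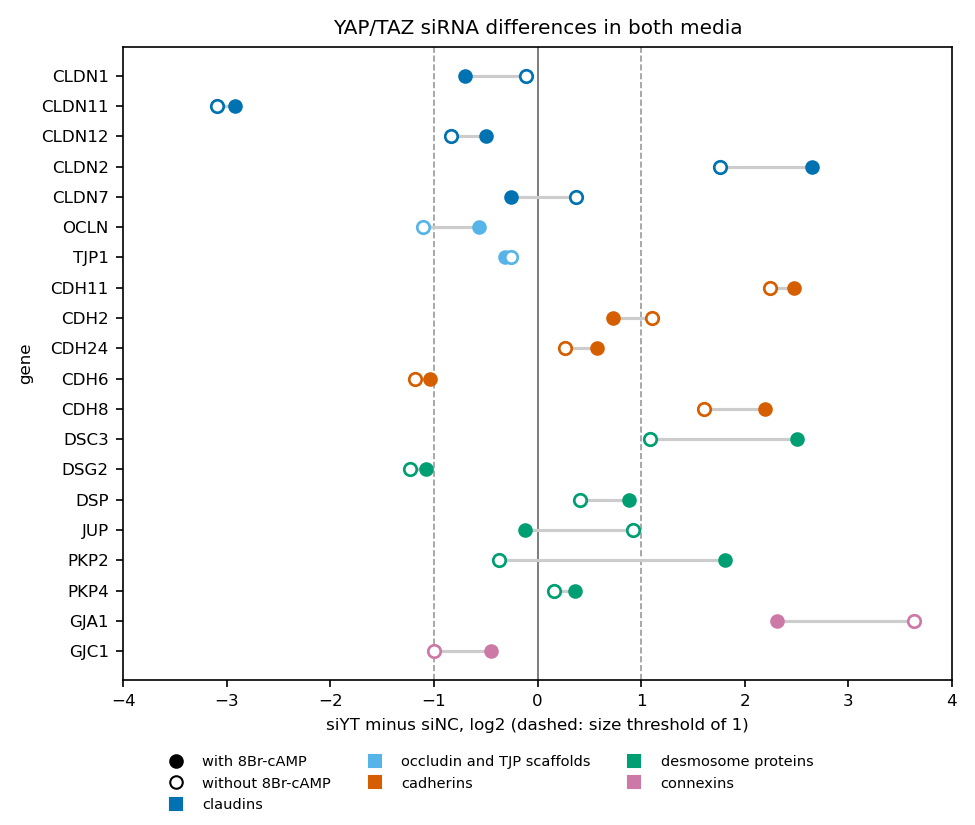
Difference between siYT and siNC in log2 units for the 20 detected junction genes, with filled points for cells with 8Br-cAMP and open points for cells without it. Dashed lines mark the threshold of 1 in either direction. GJA1, CDH11, CDH8 and DSC3 are beyond it on the higher side in both media, and CLDN11 and DSG2 on the lower side. CLDN2 and CDH6 are also beyond it in both media, but without 8Br-cAMP both of their values were under background, so each was called with 8Br-cAMP only.

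Partner proteins of the junctions were read from lists chosen with earlier results of these data known. Their calls were not checked after centring on positive controls, under which fewer genes are called lower for the siRNA. Of 17 adherens junction partners, 0 were called higher and 3 lower in both media, which is 17.6% lower, beside 3.38% of all genes. They were AJUBA, a LIM protein of adherens junctions that binds Hippo kinases (-2.99 with and -2.16 without 8Br-cAMP), the adhesion protein NECTIN3 (-1.17 and -1.72) and the receptor phosphatase PTPRF (-1.56 and -1.68). AJUBA was at 5.63 in siYT+8Br-cAMP against 8.62 in siNC+8Br-cAMP, and at 7.34 in siYT against 9.51 in siNC. Of 21 tight junction partners and polarity proteins, JAM2, a junctional adhesion molecule, was the 1 called higher in both media, with differences of 1.28 and 1.33, and 0 were called lower, beside 2.91% and 3.38% of all genes. Without 8Br-cAMP 5 of the 21 were called higher and 0 lower, which is 23.8% higher, beside 6.61% of all genes. Besides JAM2 they were the adhesion molecule JAM3 (1.19), the tricellular junction protein MARVELD2 (1.39) and the PDZ scaffolds PATJ (2.15) and MPDZ (1.005, just past the threshold). With 8Br-cAMP 1 was called higher, JAM2, and 1 lower, the polarity protein PARD6B (-1.41), while JAM3 gave 0.85, MARVELD2 0.24, PATJ 0.58 and MPDZ -0.09. MARVELD2 and PATJ were above background in siYT alone, and only just. Of 6 desmosome partners, KRT18, a keratin of simple epithelia, was called lower in both media (-4.71 with and -4.02 without 8Br-cAMP) and 0 were called higher, and of 3 pannexins 0 were called in both. In a list of 15 genes, the splicing regulator ESRP1 and transcription factors known to act on epithelial cadherin and claudin genes, ZEB2 was called higher in both media (1.24 and 1.72) and 0 lower. ZEB2 was at 9.38 in siYT+8Br-cAMP against 8.14 in siNC+8Br-cAMP, and at 9.92 in siYT against 8.20 in siNC. Calls in 1 medium are listed here for the tight junction partners only, the list with the largest share called higher without 8Br-cAMP. In that comparison 0 adherens junction partners, 1 desmosome partner, 0 pannexins and 1 of the 15 genes were called higher. Called lower were 3, 1, 0 and 0.

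The second comparison set cells with 8Br-cAMP against cells without it, for each siRNA. After siYT, 6 junction genes were called higher and 3 lower, beside 3.68% and 3.43% of all genes. After siNC, 3 were called higher and 3 lower, beside 4.09% and 3.35% of all genes. After both siRNAs GJA1 and CDH11 were called higher and CLDN1 and CLDN11 lower, which is 2 and 2 of 76, beside 1.5% and 1.06% of all genes. The median difference over the 76 genes was -0.14 after siYT and -0.15 after siNC, against -0.02 and -0.03 over all genes. After quantile normalization it was -0.11 and -0.06, against -0.012 and -0.009 over all genes. Most of the 76 genes were under background on all arrays, so these medians mostly describe values at background.

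CLDN1 was much lower with 8Br-cAMP after both siRNAs. It was at 11.33 in siYT+8Br-cAMP against 14.41 in siYT, a difference of -3.08, and at 12.03 in siNC+8Br-cAMP against 14.52 in siNC, a difference of -2.49. Both 8Br-cAMP values lay under both values without it. CLDN11 was also lower with 8Br-cAMP, with differences of -1.15 after siYT and -1.32 after siNC, so that its lowest value was in siYT+8Br-cAMP and its highest in siNC. OCLN was called lower after siNC, at 9.33 in siNC+8Br-cAMP against 10.68 in siNC, and differed by -0.80 after siYT. TJP1 differed by -0.61 and -0.55. CLDN2 was 1.64 higher in siYT+8Br-cAMP than in siYT, and 0.74 higher in siNC+8Br-cAMP than in siNC, the last 2 values being under background.

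GJA1 was 1.17 higher with 8Br-cAMP after siYT and 2.50 higher after siNC, and CDH11 1.51 and 1.28 higher. For both genes the siYT+8Br-cAMP value was the highest of the 4 and the siNC value the lowest. CDH8 was called higher after siYT by 1.24 and differed by 0.65 after siNC. CDH2 was called lower after siYT, at 13.04 in siYT+8Br-cAMP against 14.11 in siYT, and differed by -0.69 after siNC. CDH6 was called higher after siNC by 1.005, just past the threshold, and differed by 1.15 after siYT between 2 values under background.

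Among desmosome genes, PKP2 and DSC3 were called higher with 8Br-cAMP after siYT. PKP2 was at 14.52 in siYT+8Br-cAMP against 12.49 in siYT, a difference of 2.03, and at 12.71 in siNC+8Br-cAMP against 12.86 in siNC, a difference of -0.15. DSC3 was 1.40 higher after siYT and differed by -0.02 after siNC. DSP, DSG2 and PKP4 were called after neither siRNA, with differences from -0.91, for PKP4 after siNC, to -0.23, for DSP after siYT. Of the partners, CTNNB1, which encodes beta-catenin of adherens junctions and Wnt signalling, was called higher after both siRNAs. It was at 15.98 in siYT+8Br-cAMP against 13.87 in siYT and at 15.25 in siNC+8Br-cAMP against 14.06 in siNC. No other adherens partner, and none of the tight junction partners, desmosome partners, pannexins or the 15 genes listed with ZEB2, was called after both siRNAs.

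**Figure D4:**
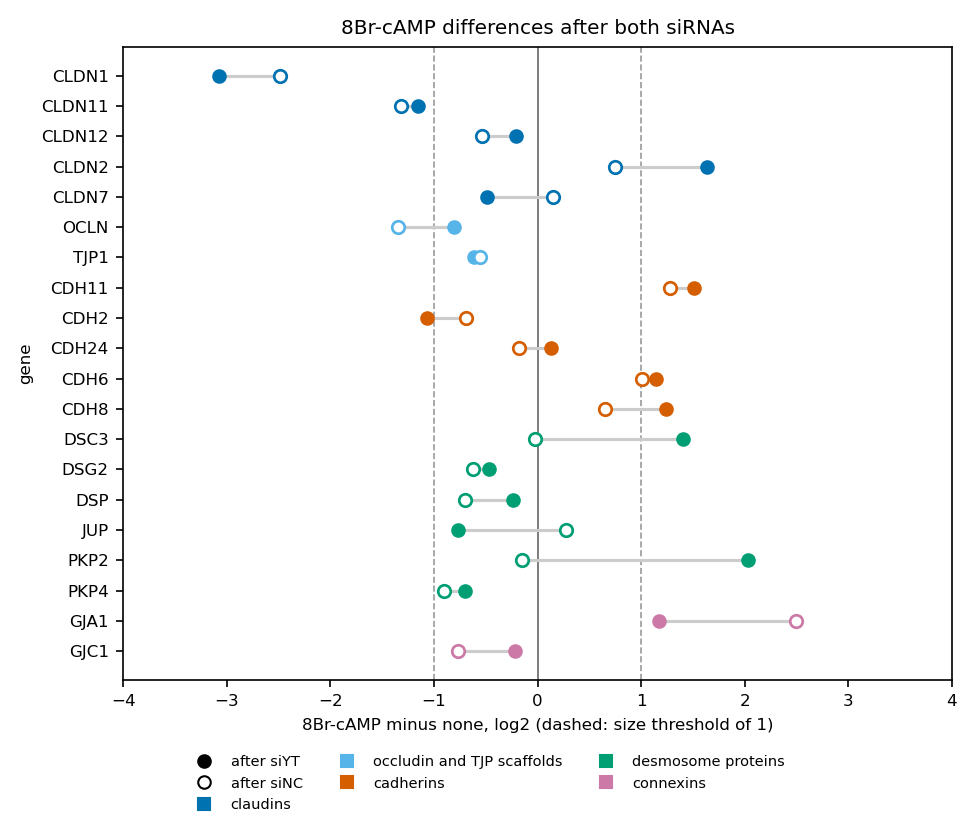
Difference between cells with and without 8Br-cAMP in log2 units for the 20 detected junction genes, with filled points after siYT and open points after siNC. Dashed lines mark the threshold of 1. CLDN1 and CLDN11 are beyond it on the lower side and GJA1 and CDH11 on the higher side after both siRNAs. After siYT alone, PKP2, DSC3, CLDN2 and CDH8 are beyond it on the higher side and CDH2 on the lower side. OCLN is beyond it on the lower side after siNC alone. CDH6 is past it after both, but its values after siYT were under background.

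A difference of differences, the siRNA difference with 8Br-cAMP less the one without it, compares the siRNA between media. It was called by the same size threshold where the highest of the 4 values was above background. It was called higher for 2 junction genes and lower for 2, beside 3% and 4.12% of all genes. Over all genes 531 were called higher and 728 lower, but 668 and 588 when each array was centred on the median of its genes. Of these 4, PKP2 had the largest, at 2.18, and its siYT+8Br-cAMP value stood apart from 3 values between 12.49 and 12.86. DSC3 had 1.42. GJA1 had -1.33, and its value of 10.86 in siNC lay furthest from the others, and JUP -1.04 with all values near background. CLDN11, CDH11, CDH6 and DSG2 had values between 0.14 and 0.23, and TJP1 had -0.06. Of the 21 tight junction partners 0 were called higher and 4 lower, which is 19.0%: PATJ at -1.57, MARVELD2 at -1.15, MPDZ at -1.09 and PARD6B at -1.05. This was the partner list with the largest share called. In the other lists, 1 adherens junction partner was called higher, 1 desmosome partner lower and 0 pannexins either way. Of the 15 genes listed with ZEB2, 1 was called higher and 1 lower. With 1 array a group, a difference of differences rests on 4 arrays and cannot be told apart from variation between cultures.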

How the data were processed

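RNA from 4 KGN cultures, 1 a group, was measured on 4 arrays. Values were deposited as log2 signals, made by the authors with RMA and Affymetrix Expression Console, according to the submitters' processing notes. RMA corrects background, brings arrays to a shared distribution and summarises probes. Tool versions and genome build are not given in the sources used here. Of 24351 probe sets, 17709 named exactly 1 gene in the platform annotation and gave 17687 genes, with the probe sets of 20 genes averaged. Each junction gene had 1 probe set, and all 76 symbols were current in RefSeq. The members and lists were chosen with earlier results of these data known.

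Differences between 2 arrays were computed in Python 3.11.15 with pandas 2.3.3 over all genes, with no test, since each group is 1 array. The number of arrays limits the precision. Called genes differed by at least 1 and had their higher value above the 95th percentile of that array's negative controls. All junction genes called in any comparison were named, as were those detected on all arrays and, called or not, CDH1 and TJP3. Partners were named when called the same way in both media or after both siRNAs. JAM3, MARVELD2, PATJ, MPDZ and PARD6B, called for the siRNA in 1 medium only, were named outside this rule. CDH5, GJA4 and the genes under other observations were chosen after their values were seen. Alternatives changed the background level, the size threshold, the scaling (centring, or quantile and cyclic loess with limma 3.58.1 in R 4.3.3), the offset and the probe set rule, with detection kept from the deposited values under other scalings.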

Additional observations from a re-analysis of the deposited data

Results flagged for a closer look

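Some detected junction genes had differences of opposite sign, of whatever size, under the 2 conditions of the same contrast. These differences were not tested, since each group is 1 array. The opposite signs for the siRNA do not hold when arrays are centred on their positive controls: PKP2 then gave 2.19 with and 0.042 without 8Br-cAMP, JUP 0.25 and 1.33, and CLDN7 0.12 and 0.79. Those for 8Br-cAMP held under that centring. PKP2 differed for the siRNA by 1.81 with and by -0.37 without 8Br-cAMP, and for 8Br-cAMP by 2.03 after siYT and by -0.15 after siNC, a difference of differences of 2.18 in both readings. JUP differed for the siRNA by -0.12 with and 0.92 without 8Br-cAMP, and for 8Br-cAMP by -0.77 after siYT and 0.28 after siNC, a difference of -1.04. CLDN7 gave -0.63 in the same way, from siRNA differences of -0.25 and 0.38 and 8Br-cAMP differences of -0.48 and 0.15. DSC3 was opposite in sign for 8Br-cAMP only, with 1.40 after siYT and -0.02, almost no difference, after siNC, which gives 1.42. CDH24 gave 0.31, from 0.13 after siYT and -0.18 after siNC.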

How the results depend on the processing

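All 37 calls of a junction gene in a comparison kept their direction under the 11 alternatives, and 13 kept the call under every one. The level filters, size thresholds and probe set rule left each junction gene's difference as it was. Centring moved all differences of a comparison by the same amount, at most 0.41, too little to reverse a call. The offset keeps the order of 2 values and could reverse only a difference of differences. Only quantile normalization and cyclic loess could thus reverse the other calls. The looser level filters, the 1.5-fold threshold and the probe set rule could not end a call. These 13 were the siRNA calls of GJA1, CDH11 and CLDN11 in both media and of CLDN2 and DSC3 with 8Br-cAMP, the 8Br-cAMP calls of CLDN1 after both siRNAs, of GJA1 after siNC and of PKP2 after siYT, and the difference of differences of PKP2. With a 4-fold threshold 23 calls were lost, with the 99th percentile of negative controls 7, centred on positive controls 5, and with an offset of 32 added to the linear value 4. Centring on positive controls moved the median of all genes by 0.38 with and 0.41 without 8Br-cAMP for the siRNA. It ended the calls of DSG2 in both media, of OCLN and GJC1 without 8Br-cAMP and of CDH6 with it. Genes called lower for the siRNA then numbered 1 with 8Br-cAMP, 1 without it and 1 in both media.

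With no level filter, 10 were called higher and 5 lower for the siRNA with 8Br-cAMP, 9 higher without it, 6 higher and 5 lower for 8Br-cAMP after siNC, and 7 higher and 6 lower for the difference of differences. Over all genes these counts were 1410 and 1336, 1642, 997 and 1088, and 1409 and 1347, all above those with the filter. With the 4-fold threshold, 5 were called higher and 1 lower for the siRNA with 8Br-cAMP, beside 143 and 283 of all genes. Without it, 2 were called higher and 1 lower, beside 262 and 340, and in both media 2 higher and 1 lower. For 8Br-cAMP the 4-fold threshold left 1 higher and 1 lower after siYT, the same counts after siNC, and 0 higher and 1 lower after both. The difference of differences kept 1 higher and 0 lower. Over all genes the 4-fold threshold left 53 to 262 higher and 66 to 340 lower in the 5 comparisons, and the 1.5-fold threshold gave 1440 to 2037 higher and 1384 to 2066 lower. Calls over all genes in both media or after both siRNAs were not counted under these thresholds, so those junction gene counts have no share beside them. With a 1.5-fold threshold, 7 were called lower for 8Br-cAMP after siYT, 8 after siNC and 5 after both, and 4 higher and 4 lower for the difference of differences. The lower count of the difference of differences was 1 with the 99th percentile, after centring on gene medians, quantile normalization or cyclic loess, and with the offset, since JUP was lost. The cause was not tested. No paired analysis was possible because each group has 1 array and no replicate number.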

Other observations

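Some junction genes under background on all 4 arrays had differences of size, picked here after their values were seen. DSC1, the desmosomal cadherin desmocollin 1 and a near neighbour of DSC3 on chromosome 18, was at 6.21 in siYT+8Br-cAMP against 3.73 in siNC+8Br-cAMP, and at 4.63 in siYT against 3.81 in siNC. As with DSC3, the siYT+8Br-cAMP value was the highest. CDH18, a type II cadherin of the nervous system, was at 6.63 in siYT+8Br-cAMP against 5.08 in siNC+8Br-cAMP and at 6.58 in siYT against 5.34 in siNC.

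Among the partner genes, SNAI1 and CTNNA2 were each above background on 1 array, and were also picked after their values were seen. SNAI1, the E-cadherin repressor Snail, was at 5.92 in siYT+8Br-cAMP against 7.44 in siNC+8Br-cAMP, and at 4.33 in siYT against 4.30 in siNC, and was above background in siNC+8Br-cAMP alone. CTNNA2, the neuronal alpha-catenin that links cadherins to actin, was at 8.50 in siYT+8Br-cAMP against 4.69 in siNC+8Br-cAMP, and at 5.73 in siYT against 3.72 in siNC, and was above background in siYT+8Br-cAMP alone. TWIST2, OVOL1 and the GRHL factors were under background on all arrays.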
